A study of Mus musculus with 4 samples.

Results

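The genes described here encode the receptor chains through which interleukin-27 (IL-27), IL-6 and IL-12 signal, with the cytokine subunit Ebi3 and the Janus kinases bound to those chains. They were chosen by symbol from the deposited gene table: the receptor chains Il27ra, Il6st, Il6ra, Il12rb1 and Il12rb2, the subunit Ebi3, and the kinases Jak1, Jak2 and Tyk2, 9 of 17039 genes listed. Expression was measured by RNA sequencing in T cells that were separated magnetically from the spleens of C57BL/6 mice about a month after an intramuscular injection of virus. The AAV-IL-27 group (replicates 1 and 3) had received a recombinant adeno-associated virus that expresses IL-27, and the AAV-ctrl group (replicates 1 and 3) a control recombinant adeno-associated virus. Each of the 4 libraries came from its own mouse. The promoter that drives IL-27 in the virus, the ages of the mice and which cells the magnetic beads bound are not given in the sources used here.

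IL-27 is a pair of the subunits p28 and Ebi3, and it acts on a receptor of Il27ra and Il6st. Il6st encodes gp130, which is also the signalling chain for IL-6 once IL-6 is held by Il6ra, so IL-27 and IL-6 share a chain. IL-12 acts on Il12rb1 with Il12rb2, and Il12rb1 also serves the IL-23 receptor. None of these chains has kinase activity: Jak1, Jak2 and Tyk2 sit on their cytoplasmic parts and phosphorylate STAT transcription factors. In naive T cells Il6ra and Il6st are known to be present and Il12rb2 is known to be scarce, becoming induced after activation.

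In T cell preparations from AAV-IL-27 mice, transcripts of both IL-12 receptor chains were more than 4-fold higher, while transcripts of both IL-27 receptor chains and of the IL-6 receptor were lower. Jak2 was slightly higher, Jak1 slightly lower, and neither Tyk2 nor Ebi3 passed the test. All 9 genes had enough counts to be tested: 3 rose, 4 fell and 2 did not pass (edgeR's quasi-likelihood test, Benjamini-Hochberg adjusted p under 0.05 over the 12887 genes tested). In the same comparison 39.0% of all genes tested passed, 21.3% higher and 17.7% lower in AAV-IL-27. The median log2 fold change was -0.29 over the 9 genes and -0.01 over all genes tested. Counts scaled by library size and TMM factor (CPM) did not overlap between the groups for 8 of the 9, as for 71.5% of all genes tested.

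**Figure D1:**
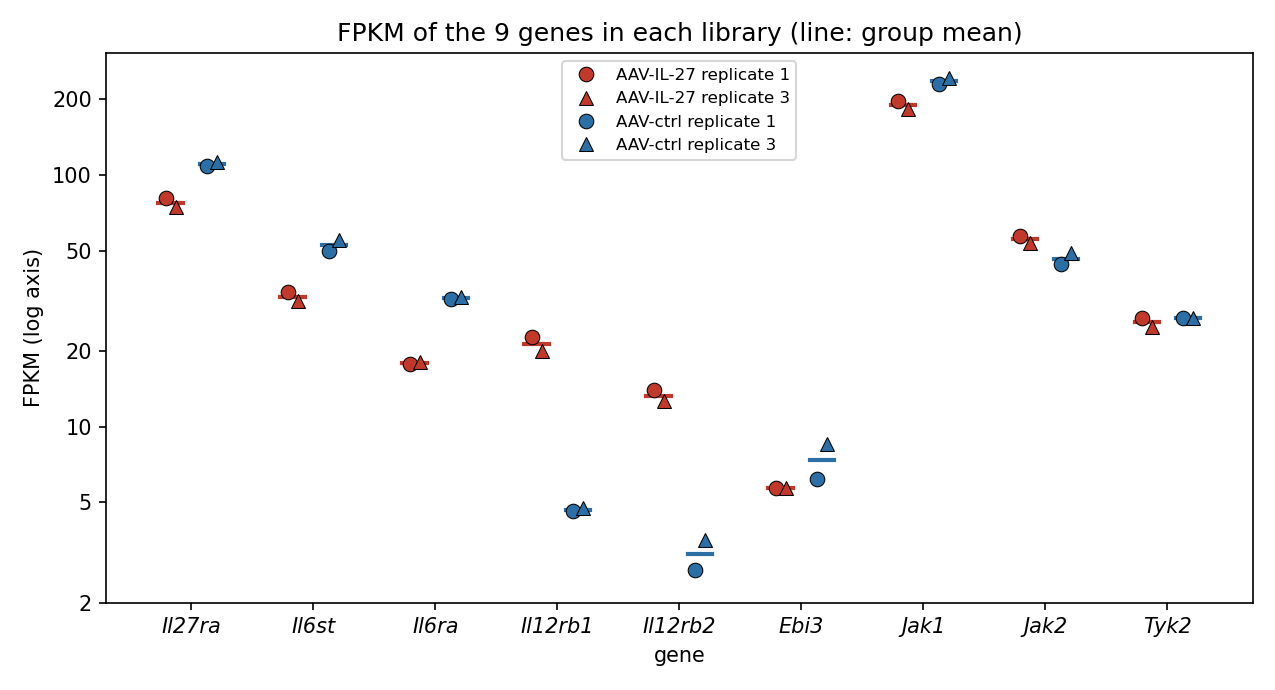
FPKM on a log axis for the 9 genes in each library, with a point per library and a line at the group mean, AAV-IL-27 in red left of AAV-ctrl in blue. Il12rb1 and Il12rb2 lie far above AAV-ctrl in both AAV-IL-27 libraries, Il27ra, Il6st, Il6ra and Jak1 lie below it, and the Tyk2 points overlap.

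The libraries were of similar depth, with total expected counts of 16108507 and 16182453 in AAV-IL-27, against 15803526 and 15742523 in AAV-ctrl. The first principal component separated the groups and accounted for 81.4% of variance. CD8+ T cells are named in the title, and Cd8b1, the most abundant of 13 listed T cell markers, stood at 626 and 546 FPKM (counts per length and library size) in AAV-IL-27 and 606 and 617 FPKM in AAV-ctrl. Cd4 stood at 8.21 and 10.1 FPKM in AAV-IL-27 and 9.74 and 9.81 FPKM in AAV-ctrl. The preparations also held transcripts of other cells: Cd79a, a B cell receptor component, stood at 251 and 370 FPKM in AAV-IL-27 and 630 and 530 FPKM in AAV-ctrl. In such bulk samples, more or fewer cells of a type and more or less RNA per cell cannot be told apart.

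Il12rb1 encodes the beta 1 chain of the IL-12 receptor, which binds the p40 subunit (NCBI Gene 16161, GRCm38.p6 chromosome 8, 70808360 to 70823542). It stood at 22.8 and 19.9 FPKM in AAV-IL-27 libraries 1 and 3, against 4.62 and 4.75 FPKM in AAV-ctrl, from 1057 and 925 expected counts in AAV-IL-27, against 201 and 210 in AAV-ctrl. Both AAV-IL-27 libraries were high, and the lower of them was 4.19 times the higher AAV-ctrl library in FPKM. The fold change was 4.88 (log2 fold change 2.29 ± 0.093 (SE), 95% interval 2.08 to 2.50, n = 2 libraries per group, edgeR adjusted p = 2.96e-07). On the FPKM scale it moved to the 77.1 percentile of all 17039 genes in AAV-IL-27, against the 48.6 percentile in AAV-ctrl.

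Il12rb2 encodes the beta 2 chain, which carries the STAT4 docking sites of the receptor (NCBI Gene 16162, chromosome 6, 67285986 to 67376293). It stood at 13.9 and 12.7 FPKM in AAV-IL-27 and 2.70 and 3.55 FPKM in AAV-ctrl. Again both AAV-IL-27 libraries were above both AAV-ctrl libraries. The fold change was 4.43 (log2 fold change 2.15 ± 0.10 (SE), n = 2 per group, edgeR adjusted p = 7.53e-07). Of the 12887 genes tested, 190 had a log2 fold change at least as high.

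Il27ra encodes the chain specific to IL-27 (NCBI Gene 50931, chromosome 8, 84030286 to 84042600). It was the most abundant of the 5 receptor chains per length in all 4 libraries, at 80.8 and 74.5 FPKM in AAV-IL-27 and 108 and 113 FPKM in AAV-ctrl. Both AAV-IL-27 libraries were low. The log2 fold change was -0.45 (95% interval -0.58 to -0.33, edgeR adjusted p = 0.000203), which is 0.73 of the AAV-ctrl level.

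Il6st, the gp130 chain (NCBI Gene 16195, chromosome 13, 112464070 to 112506860), stood at 34.2 and 31.5 FPKM in AAV-IL-27 and 49.9 and 55.3 FPKM in AAV-ctrl, with no overlap. It fell to 0.65 of the AAV-ctrl level (log2 fold change -0.63, 95% interval -0.78 to -0.48, edgeR adjusted p = 0.000105).

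Il6ra, which holds IL-6 and presents it to gp130 (NCBI Gene 16194, chromosome 3, 89869324 to 89913196), had the tightest replicates of the chains. It stood at 17.7 and 18.0 FPKM in AAV-IL-27 and 32.3 and 32.6 FPKM in AAV-ctrl. Both AAV-IL-27 libraries were low by nearly the same amount. It fell to 0.57 of the AAV-ctrl level (log2 fold change -0.81 ± 0.052 (SE), edgeR adjusted p = 4.22e-06).

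**Figure D2:**
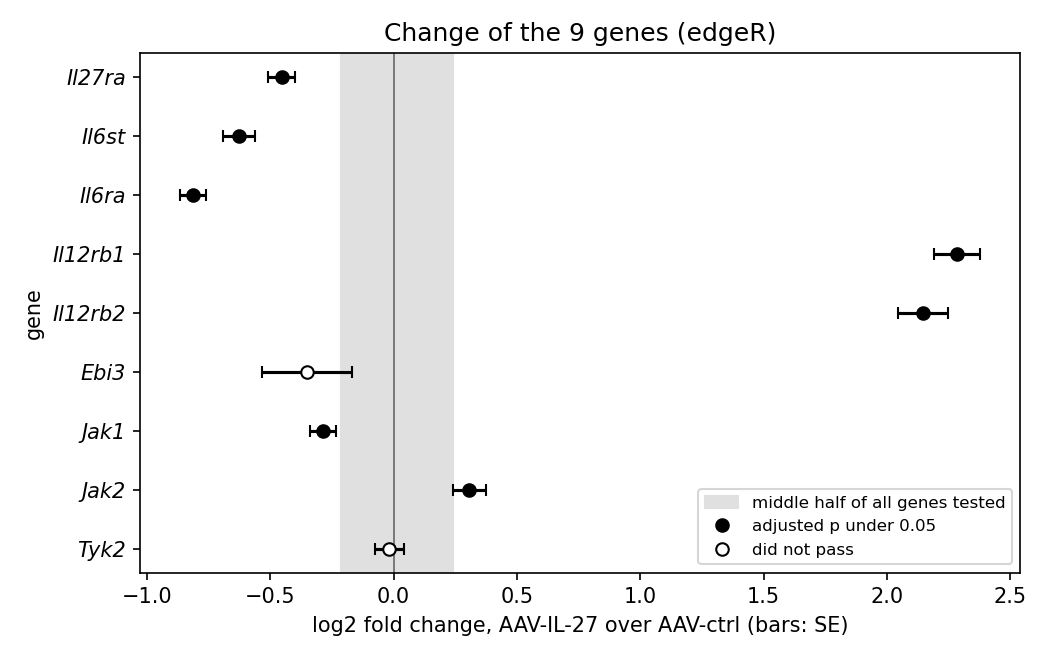
Log2 fold change of AAV-IL-27 over AAV-ctrl for the 9 genes, with standard errors. Filled points passed the adjusted p threshold of 0.05, and the grey band spans the middle of all 12887 genes tested, from the lower quartile at -0.21 to the upper quartile at 0.24. Il12rb1 and Il12rb2 stand near 2, and Jak2 stands just right of the band. Il6ra, Il6st, Il27ra, Jak1 and Ebi3, which did not pass, stand left of the band, and Tyk2 lies within it.

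Bases upstream of the genes are shown for the chains with a sequence at hand that rose or fell, so that the letters can be set beside the direction of change. They are RefSeq sequences of build GRCm38.p6, read on the gene's strand and ending at the base before the annotated gene. Promoter sequences were matched for 7 of the 9 genes, and Il27ra and Il12rb1 were not analysed here. Capitals mark motif matches, found by a search of both strands for motifs chosen after the values were seen.
Il12rb2 (chr6:67376294-67376438, minus strand): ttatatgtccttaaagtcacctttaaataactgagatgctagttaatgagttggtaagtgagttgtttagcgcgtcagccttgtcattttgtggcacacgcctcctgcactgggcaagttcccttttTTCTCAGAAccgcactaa
Il6st (chr13:112463820-112464069, plus strand): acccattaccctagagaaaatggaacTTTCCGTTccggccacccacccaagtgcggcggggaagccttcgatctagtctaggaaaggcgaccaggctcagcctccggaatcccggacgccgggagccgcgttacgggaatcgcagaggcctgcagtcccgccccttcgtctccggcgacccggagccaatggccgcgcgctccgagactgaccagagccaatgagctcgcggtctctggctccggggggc
Il6ra (chr3:89913197-89913446, minus strand): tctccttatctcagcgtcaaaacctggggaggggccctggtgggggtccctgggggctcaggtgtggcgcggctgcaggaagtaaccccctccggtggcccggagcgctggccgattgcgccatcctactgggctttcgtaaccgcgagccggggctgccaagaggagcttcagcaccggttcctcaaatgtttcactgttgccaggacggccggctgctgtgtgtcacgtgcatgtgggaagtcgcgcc
The capitals in the Il12rb2 stretch of 145 bases mark 1 match to the gamma interferon activation site, TTCNNNGAA, which STAT dimers bind and which reads the same on both strands. It starts 18 bases before the gene, and 3.99% of 27025 promoters hold one in the same 145 bases. The other 6 stretches, 132 to 250 bases long, held no match to it. The G and C share was 42.8% in the Il12rb2 stretch, 66.0% in that of Il6st and 65.2% in that of Il6ra, against a median of 52.0% over all promoters. The capitals in the Il6st stretch mark 1 match to the core bound by interferon regulatory factors, AANNGAAA, read on the opposite strand. Of all promoters 21.6% hold that core in 250 bases, and the other 6 stretches held none. The core was searched after the longer interferon-stimulated response element had given no match in the 7 stretches. None of the 7 held the T-box core GGTGTGA or the AP-1 site TGANTCA on either strand, which 3.31% and 6.87% of all promoters hold in 250 bases. A match here is a match of letters, and no binding was measured.

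Since a ratio of FPKM between genes within a library does not depend on how libraries are scaled, ratios show the balance between chains. The ratio of Il12rb1 to Il27ra was 0.282 and 0.267 in AAV-IL-27, against 0.0426 and 0.0421 in AAV-ctrl, a 6.49-fold difference. The ratio of Il12rb2 to Il6st was 0.407 and 0.403 in AAV-IL-27, against 0.0541 and 0.0642 in AAV-ctrl, a 6.87-fold difference. The AAV-IL-27 libraries thus carried far more of either IL-12 receptor chain relative to either IL-27 receptor chain. No test is given for these ratios, since an exact permutation of 2 against 2 libraries cannot go below a p of 0.33.

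Within each receptor the chains shifted much less against each other. The ratio of Il27ra to Il6st was 2.36 and 2.37 in AAV-IL-27, against 2.17 and 2.04 in AAV-ctrl, so Il6st fell slightly more than Il27ra. The ratio of Il6st to Il6ra was 1.94 and 1.75 in AAV-IL-27, against 1.55 and 1.69 in AAV-ctrl. The ratio of Il12rb2 to Il12rb1 was 0.611 and 0.637 in AAV-IL-27, inside the span of 0.584 and 0.747 in AAV-ctrl. Summed over the 5 chains, the level was 169 and 157 FPKM in AAV-IL-27 and 198 and 209 FPKM in AAV-ctrl.

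**Figure D3:**
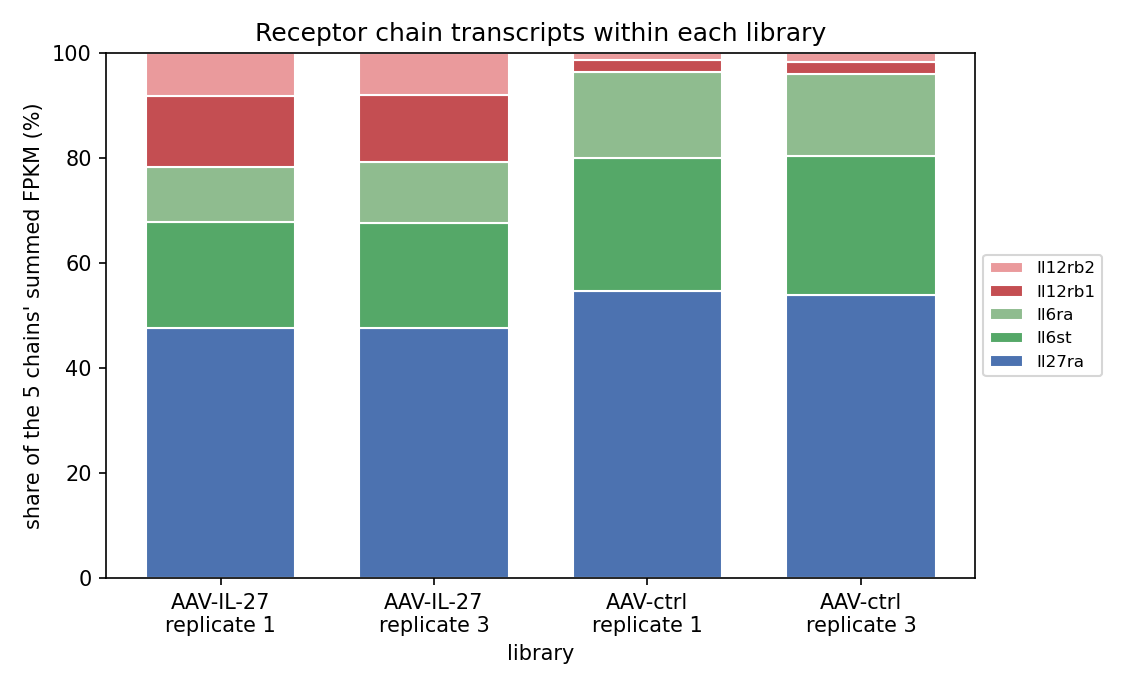
Share of each receptor chain in the summed FPKM of the 5 chains, in percent, for each library. Il12rb1 and Il12rb2 together fill the top of the AAV-IL-27 bars, with mean shares of 13.1% and 8.16%, against 2.30% and 1.53% in the AAV-ctrl bars.

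As shares of that sum, Il12rb1 took 13.1% ± 0.524 and Il12rb2 8.16% ± 0.0899 in AAV-IL-27, against 2.30% ± 0.0438 and 1.53% ± 0.236 in AAV-ctrl (SD, n = 2 each). Il27ra took 47.6% ± 0.0665 in AAV-IL-27, against 54.4% ± 0.548 in AAV-ctrl. Il6ra took 10.97% ± 0.76 in AAV-IL-27, against 15.96% ± 0.502 in AAV-ctrl (SD, n = 2 each).

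Ebi3 encodes the soluble subunit that pairs with p28 in IL-27 and is itself built like a cytokine receptor (NCBI Gene 50498, chromosome 17, 55952623 to 55957022). It stood at 5.73 and 5.73 FPKM in AAV-IL-27 and 6.19 and 8.55 FPKM in AAV-ctrl. Its expected counts did differ between the AAV-IL-27 libraries, at 97 and 107, against 113 and 150 in AAV-ctrl. The AAV-IL-27 libraries were the lower ones, but AAV-ctrl replicate 1 was close to them. The log2 fold change was -0.35, with a 95% interval of -0.76 to 0.06 (edgeR adjusted p = 0.159). Scaled to the T cell marker list it passed, at -0.55 (adjusted p = 0.0206). Under that scaling the median over all genes tested was itself at -0.212.

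Among the kinases, Jak1, which serves the gp130 receptors and many others, was the most abundant (NCBI Gene 16451, chromosome 4, 101151974 to 101265282). It stood at 196 and 182 FPKM in AAV-IL-27 and 231 and 244 FPKM in AAV-ctrl, with the AAV-IL-27 libraries lower. The log2 fold change was -0.29 (95% interval -0.40 to -0.17, edgeR adjusted p = 0.0023). With AAV-ctrl replicate 3 left out the call was lost (-0.25, adjusted p = 0.057).

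Jak2, which sits on Il12rb2 and gp130 (NCBI Gene 16452, chromosome 19, 29251803 to 29313095), stood at 57.2 and 53.9 FPKM in AAV-IL-27 and 44.2 and 49.0 FPKM in AAV-ctrl. Its groups did not overlap, with the AAV-IL-27 libraries higher. The log2 fold change was 0.31 (95% interval 0.16 to 0.46, edgeR adjusted p = 0.00595). The call was lost when AAV-ctrl replicate 1 was left out (0.22, adjusted p = 0.0821) and when scaled to the T cell marker list (0.10, adjusted p = 0.441).

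Tyk2, the kinase of Il12rb1 (NCBI Gene 54721, chromosome 9, 21104068 to 21131393), stood at 27.0 and 24.9 FPKM in AAV-IL-27 and 27.0 and 26.9 FPKM in AAV-ctrl, and the groups overlapped. Its log2 fold change was -0.02, with a 95% interval of -0.15 to 0.12 (edgeR adjusted p = 0.85). The ratio of Jak2 to Tyk2 was 2.12 and 2.16 in AAV-IL-27, against 1.63 and 1.82 in AAV-ctrl. Of the summed FPKM of the 3 kinases, Jak2 made up 20.5% ± 0.186 in AAV-IL-27, against 15.0% ± 0.479 in AAV-ctrl (SD, n = 2 each).

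The order of the 9 genes by FPKM differed between the groups. In AAV-IL-27 it ran, from high to low, Jak1, Il27ra, Jak2, Il6st, Tyk2, Il12rb1, Il6ra, Il12rb2 and Ebi3. In AAV-ctrl it ran Jak1, Il27ra, Il6st, Jak2, Il6ra, Tyk2, Ebi3, Il12rb1 and Il12rb2. Il12rb1 and Il12rb2 were thus below Ebi3 in AAV-ctrl and above it in AAV-IL-27. Of the 16 neighbour pairs in these orders, none overlapped between libraries, and only Il6st and Jak2 in AAV-ctrl (means of 52.6 and 46.6 FPKM) differed by less than the sum of their SDs.

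A length can be read from each gene as its count divided by FPKM and total count, and a change in it between libraries alters FPKM relative to counts. For Il6st and Il6ra it varied by 0.0242% and 0.0419% over the 4 libraries, near the rounding of the FPKM. For Il12rb1 it was 2878 and 2870 bases in AAV-IL-27 and 2753 and 2808 bases in AAV-ctrl, a mean difference of 3.35%, where rounding allows 0.108%. For Ebi3 it was 1051 and 1154 bases in AAV-IL-27 and 1155 and 1114 bases in AAV-ctrl, overlapping between groups, though GENCODE lists 1 transcript of Ebi3, of 1154 bases, and for Il12rb2 it ranged by 7.73% with equal group means. GENCODE lists 3 protein-coding transcripts of Il12rb1, from 729 to 2873 bases. No test was run on these lengths.

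Of the other cytokine subunits of the IL-6 and IL-12 families, 2 rose, 1 fell and 5 did not pass among 8 tested of 11 (median log2 fold change 0.22, against -0.01 over all genes tested). That is near the share over all genes tested, of which 39.0% passed, 21.3% higher and 17.7% lower. The same shares apply beside the counts of the lists below. Lif, leukaemia inhibitory factor, stood at 2.50 and 1.44 FPKM in AAV-IL-27 and 0.17 and 0.11 FPKM in AAV-ctrl (log2 fold change 3.86, edgeR adjusted p = 0.000194). Osm, oncostatin M, rose by 0.72 on the log2 scale (adjusted p = 0.000343), at 11.9 and 12.5 FPKM in AAV-IL-27 and 7.95 and 7.41 FPKM in AAV-ctrl. Clcf1, a cytokine of the ciliary neurotrophic factor receptor, fell by 1.02 (adjusted p = 1.88e-06), at 28.3 and 27.3 FPKM in AAV-IL-27 and 60.0 and 57.0 FPKM in AAV-ctrl. Il6 stood at 0.77 and 0.99 FPKM in AAV-IL-27 and 0.28 and 0.60 FPKM in AAV-ctrl and did not pass (adjusted p = 0.102). Il12b, the p40 subunit that binds Il12rb1, was named after its values were seen, at 4.82 and 2.05 FPKM in AAV-IL-27 and 1.41 and 1.59 FPKM in AAV-ctrl (log2 fold change 1.24, adjusted p = 0.103). It passed with AAV-IL-27 replicate 3 left out (1.73, adjusted p = 0.000185), by DESeq2 (adjusted p = 0.0094) and scaled to the T cell marker list (1.01, adjusted p = 7.99e-05). Il27, which encodes p28, was listed at 0.21 and 0.50 FPKM in AAV-IL-27 and 0.35 and 0.17 FPKM in AAV-ctrl and was too low to test.

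Of 7 other receptor chains of these families, 3 were tested and none passed by edgeR, and no unadjusted p was under 0.05. Lifr, the LIF receptor, stood at 4.99 and 4.86 FPKM in AAV-IL-27 and 3.81 and 4.71 FPKM in AAV-ctrl (adjusted p = 0.194), and it passed without AAV-ctrl replicate 3 (log2 fold change 0.49, adjusted p = 0.031). Il31ra stood at 0.99 and 1.11 FPKM in AAV-IL-27 and 0.57 and 0.89 FPKM in AAV-ctrl (adjusted p = 0.113). Il11ra1 stood at 3.83 and 3.62 FPKM in AAV-IL-27 and 4.41 and 4.87 FPKM in AAV-ctrl (adjusted p = 0.22). Il23r, Osmr and Cntfr were at or below 0.15 FPKM in every library and were not tested.

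Of 25 listed genes (the STATs, Jak3, feedback inhibitors and phosphatases), 11 rose, 4 fell and 10 did not pass (median log2 fold change 0.11). Jak3, the kinase of the common gamma chain and no member of the set above, rose by 1.03 (edgeR adjusted p = 1.98e-06), more than either Jak1 or Jak2 moved. Socs1 and Socs3, feedback inhibitors that bind Janus kinases and gp130, rose by 1.94 (adjusted p = 2.83e-06) and 1.77 (adjusted p = 2.24e-07). The 4 that fell were Stat4, Stat6, Pias1 and Ptpn6, chosen for naming after their values were seen. Without AAV-ctrl replicate 1 none of the 25 fell past the threshold, without AAV-ctrl replicate 3 there was 1, and DESeq2 called 1.

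Stat4, the main STAT of the IL-12 receptor, stood at 52.1 and 56.9 FPKM in AAV-IL-27 and 63.8 and 65.9 FPKM in AAV-ctrl (log2 fold change -0.19, edgeR adjusted p = 0.023), opposite in direction to Il12rb1 and Il12rb2. The call was lost on leaving out AAV-IL-27 replicate 1 (adjusted p = 0.0923), AAV-ctrl replicate 1 (0.0841) or AAV-ctrl replicate 3 (0.191), and by DESeq2 (adjusted p = 0.0788).

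Of 6 transcription factors tied to expression of Il12rb1 or Il12rb2, 4 rose, 1 fell (Stat4) and 1 did not pass (median log2 fold change 0.33). Irf1, required for Il12rb1 expression in mouse T cells, stood at 251 and 235 FPKM in AAV-IL-27 and 115 and 113 FPKM in AAV-ctrl (log2 fold change 1.14, edgeR adjusted p = 5.04e-07). Tbx21, T-bet, which raises Il12rb2 in T helper cells, stood at 29.5 and 29.5 FPKM in AAV-IL-27 and 12.1 and 11.6 FPKM in AAV-ctrl (1.36, adjusted p = 6.29e-07). Runx3 rose by 0.34 (adjusted p = 0.00103) and Eomes by 0.32 (adjusted p = 0.00117), but not when scaled to the T cell marker list (0.14 and 0.12, adjusted p = 0.29 and 0.371). Gata3, known to hold down Il12rb2, stood at 8.07 and 7.21 FPKM in AAV-IL-27 and 8.91 and 9.31 FPKM in AAV-ctrl (adjusted p = 0.0899).

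Of 4 genes of receptor shedding, 1 rose and 1 fell (median log2 fold change 0.06), where 39.0% of all genes tested passed. Rhbdf2, a partner of the protease that cuts Il6ra from the surface, fell by 0.41 (edgeR adjusted p = 0.0019), at 11.01 and 11.8 FPKM in AAV-IL-27 and 16.5 and 15.2 FPKM in AAV-ctrl. Adam17, that protease, rose by 0.21 (adjusted p = 0.0111), but the call was lost when AAV-ctrl replicate 1 (adjusted p = 0.137) or AAV-ctrl replicate 3 (0.0528) was left out, by DESeq2 (adjusted p = 0.0666) and scaled to the T cell marker list (0.01, adjusted p = 0.958). Adam10 stood at 37.7 and 38.1 FPKM in AAV-IL-27 and 34.1 and 38.4 FPKM in AAV-ctrl, with overlapping groups. Rhbdf1 stood at 3.73 and 3.68 FPKM in AAV-IL-27 and 4.77 and 3.09 FPKM in AAV-ctrl.

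Of 17 genes known to be induced by IL-12 or IL-27 in T cells, 15 rose, 1 fell and 1 did not pass (median log2 fold change 1.77). Tbx21, Irf1 and Socs3 are also counted in the lists above. This list of 17 was drawn up with earlier results of these data known, so its direction is no independent evidence. Ifng, the cytokine made after IL-12 signalling, stood at 37.4 and 33.5 FPKM in AAV-IL-27 and 6.36 and 6.06 FPKM in AAV-ctrl (2.56, edgeR adjusted p = 2.24e-07). Lag3 rose by 3.28 (adjusted p = 4.47e-09). Il18r1, a chain of the IL-18 receptor that IL-12 is known to induce, fell by 0.28 (adjusted p = 0.0249). Il18r1 lost its call when AAV-ctrl replicate 1 was left out (adjusted p = 0.187), when AAV-IL-27 replicate 1 was left out (0.0836), and with the replicate number as a block (adjusted p = 0.0628).

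Other cells in the spleen carry these receptors too. Beside the counts of their markers, 39.0% of all genes tested passed, 21.3% higher and 17.7% lower in AAV-IL-27. Natural killer cells are known for both IL-12 receptor chains. Of 9 natural killer markers, 8 fell and 1 rose, Gzma, which T cells also make, and none was at 0. Their summed level was 153 and 125 FPKM in AAV-IL-27 and 159 and 146 FPKM in AAV-ctrl, of which Gzma made up 139 and 112 FPKM in AAV-IL-27 and 76.4 and 66.5 FPKM in AAV-ctrl. Ncr1 stood at 1.62 and 2.25 FPKM in AAV-IL-27 and 12.1 and 11.6 FPKM in AAV-ctrl. The part of natural killer cells in the higher Il12rb1 and Il12rb2 was not tested.

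B cells and macrophages are known for Ebi3 or the IL-6 family chains. Of 10 B cell markers 4 fell and 6 did not pass, where 39.0% of all genes tested passed and 17.7% were lower. Their summed levels were 936 and 1298 FPKM in AAV-IL-27 and 2023 and 1778 FPKM in AAV-ctrl. With AAV-IL-27 replicate 1 left out 9 of the 10 fell, and with AAV-IL-27 replicate 3 left out all 10. Of 12 macrophage and monocyte markers 2 rose, 6 fell and 4 did not pass, and their sum of 1102 and 916 FPKM in AAV-IL-27 and 588 and 523 FPKM in AAV-ctrl was mostly Ly6c2, which CD8+ T cells also make. With 1 library left out, 1 to 3 of the 12 rose and 4 to 7 fell. None of either list was at 0, and the part of these cells in the lower Il6st, Il6ra and Ebi3 was not tested.

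Neutrophil markers rose for 12 of 14, with summed levels of 977 and 1604 FPKM in AAV-IL-27 and 40.7 and 30.9 FPKM in AAV-ctrl, and Ly6g and Prtn3 were each listed at 0 in 1 AAV-ctrl library. Of these 14, 6 rose past the threshold with AAV-ctrl replicate 1 left out and 4 with AAV-ctrl replicate 3 left out. Of 10 dendritic cell markers 2 rose, 2 fell and 6 did not pass, near the 39.0% of all genes tested that passed. Their sums were 369 and 310 FPKM in AAV-IL-27 and 325 and 335 FPKM in AAV-ctrl. Of these 10, 6 rose with AAV-IL-27 replicate 3 left out and 5 with AAV-IL-27 replicate 1 left out. Of 13 T cell markers 7 rose, 2 fell and 4 did not pass, with sums of 3653 and 3247 FPKM in AAV-IL-27 and 3206 and 3253 FPKM in AAV-ctrl. Of 8 markers of CD4 and regulatory T cells 4 fell, 2 did not pass, and Ctla4 and Ikzf2 rose, with sums of 79.9 and 72.9 FPKM in AAV-IL-27 and 40.6 and 39.2 FPKM in AAV-ctrl. Ctla4 alone stood at 53.0 and 40.5 FPKM in AAV-IL-27 and 7.18 and 7.11 FPKM in AAV-ctrl. Of this list, only Gpr83 still fell past the threshold with AAV-IL-27 replicate 1, AAV-ctrl replicate 1 or AAV-ctrl replicate 3 left out in turn, and 1 rose with AAV-ctrl replicate 1 left out. Of the T cell markers, 3 rose and 0 fell with AAV-ctrl replicate 1 left out, and 4 rose and 0 fell with AAV-ctrl replicate 3 left out. The part of all these cells in the results was not tested.

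Genes whose pattern over the 4 libraries lay nearest to a chain were found by the root mean square difference of log2 CPM deviations from each gene's own mean, among 10260 genes. Nearest to Il12rb1 were Chst11, a chondroitin sulfotransferase (0.048, at 19.6 and 16.7 FPKM in AAV-IL-27 and 3.56 and 3.67 FPKM in AAV-ctrl), and the transcription factor Maf (0.061). Nearest to Il12rb2 were the chemokine gene Ccl3 (0.058, at 125 and 103 FPKM in AAV-IL-27 and 24.2 and 29.2 FPKM in AAV-ctrl) and Cacnb3, a calcium channel subunit (0.070). Nearest to Il27ra were Fam234a (0.0092) and the histone demethylase gene Kdm4b (0.011). Nearest to Il6st were Dstyk (0.023) and Zfp354c (0.023), and nearest to Il6ra were Dennd3 (0.019) and Gramd1a (0.020). With 4 libraries in 2 groups, this likeness is mostly that of the fold change between groups.

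**Figure D4:**
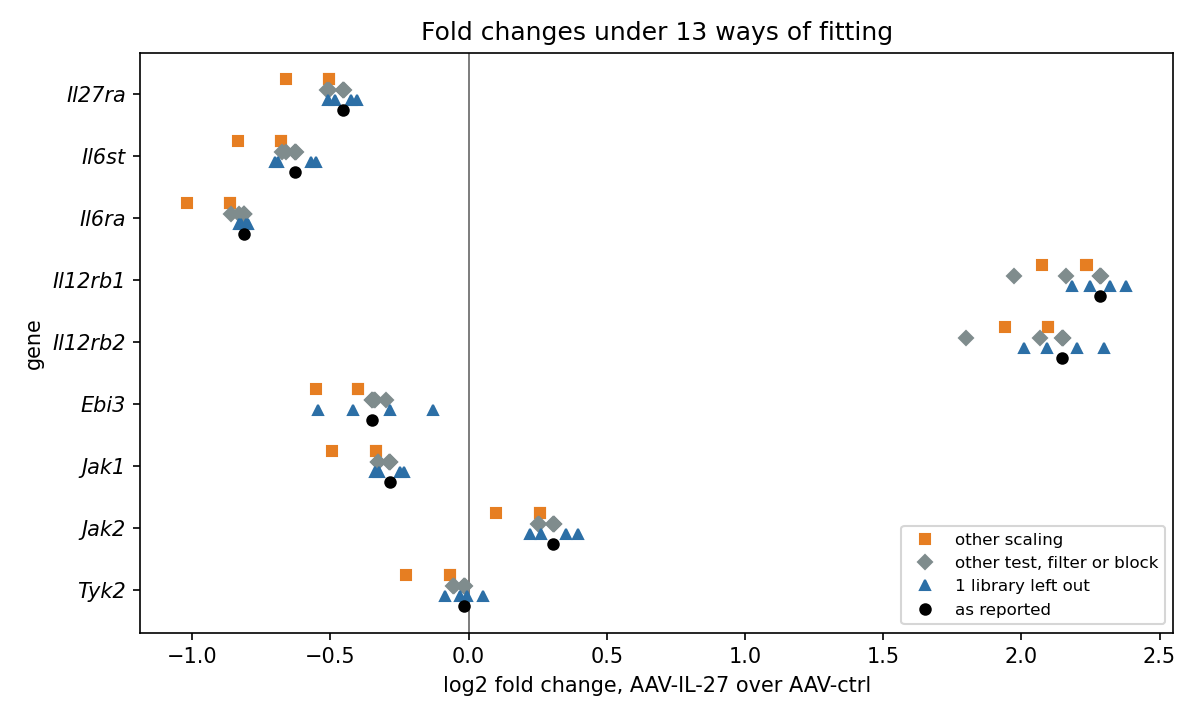
Log2 fold change of each gene as reported and under 12 other ways of fitting: 3 other scalings, 5 other tests, filters or a block, and 4 fits that leave out 1 library. The 5 receptor chains keep their direction in all of them, and Tyk2 crosses 0 without AAV-IL-27 replicate 3.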

How the data were processed

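RNA was measured in 4 libraries of splenic T cells, 2 per virus. The authors deposited expected counts per gene, of which 64.9% to 65.1% are whole (within floating-point rounding), and a second set of values taken as FPKM; the header does not name that unit. The FPKM reading rests on the values: counts divided by them and by the library total give lengths on the scale of transcripts (2481 to 2503 bases for Il27ra, whose only coding transcript in GENCODE has 2664), although that of Il12rb2, 3600 to 3878 bases, is beyond its longest one of 2998. The length of Jak1, 4911 to 4947 bases, was also beyond its longest coding transcript of 4906. Il12rb1 in AAV-IL-27 replicate 1 (2878 against 2873) and Ebi3 in AAV-ctrl replicate 1 (1155 against 1154) slightly exceeded theirs. Build GRCm38.p6 and the tools RSEM 1.2.12, Bowtie2 2.2.5, HISAT2 2.0.4 and DESeq2 1.4.5 are named, without roles, per the submitters' processing notes. The sources used here do not say whether counting used strand. The 4 columns of group averages were not used.

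Expected counts were rounded, filtered with filterByExpr (12887 of 17039 genes kept), scaled by TMM and compared with edgeR 4.0.16 in R 4.3.3 (quasi-likelihood test, robust, two-sided, no block). The standard error is the log2 fold change over the square root of F. On 1 draw of simulated counts with 2 libraries per group (12741 genes passed the filter), it called 30% of 50 genes changed 1.25-fold, 68% of those changed 1.5-fold and 2-fold, 100% of those changed 4-fold, and 34 of 12541 unchanged genes. Alternatives used DESeq2 1.42.0 and limma 3.58.1 on log2(FPKM + 1) and log2(FPKM + 0.1). The genes and lists were chosen with earlier results of these data known. Named genes were the 9 genes, the 2 nearest in pattern to each receptor chain (mean log2 CPM of at least 2), the 4 with the smallest p in each list, and marker genes, of which some are not reported here; others were named after their values were seen. Libraries of a group differed by more than counting noise (chi-square divided by its degrees of freedom was 6.47 within AAV-IL-27 and 2.49 within AAV-ctrl). Precision is limited by 2 libraries per group.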

Additional observations from a re-analysis of the deposited data

How the results depend on the processing

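The 5 receptor chains kept their direction and passed under all 12 alternatives, with log2 fold changes of 1.97 to 2.38 for Il12rb1, 1.80 to 2.30 for Il12rb2, -0.66 to -0.40 for Il27ra, -0.84 to -0.55 for Il6st and -1.02 to -0.80 for Il6ra. Of 108 values of the 9 genes, 103 stayed on the same side of the threshold in the same direction. Scaled to the T cell marker list, Jak2 did not pass (0.10), Ebi3 passed (-0.55), 10 STAT and feedback genes fell, 2 transcription factors fell and 2 rose, and 0 shedding genes rose. Leaving out 1 library, where the lone sample is assumed to vary like the other group, gave 2635 (without AAV-ctrl replicate 1) to 4886 changed genes in place of 5023, with 2743 without AAV-ctrl replicate 3. It gave -0.34 to -0.23 for Jak1, 0.22 to 0.40 for Jak2, -0.54 to -0.13 for Ebi3 and -0.087 to 0.051 for Tyk2, whose sign turned without AAV-IL-27 replicate 3. It also gave 0 to 4 lower STAT and feedback genes, 0 to 1 lower transcription factors, 0 to 1 higher shedding genes, 0 to 1 higher among other receptor chains and 0 to 1 lower among induced genes. The ratio of Il12rb2 to Il12rb1 had a log2 fold of -0.084, which ran from -0.261 to 0.094 when 1 library was left out and was positive without AAV-ctrl replicate 3, and that of Il12rb1 to Il27ra was 2.74 from counts and 2.70 from FPKM. DESeq2 called 3243 genes, 1 lower STAT or feedback gene, 0 lower transcription factors and 0 higher shedding genes, and limma called 0 higher shedding genes at either pseudocount. With upper-quartile factors or library size alone, 7 STAT and feedback genes and 2 transcription factors fell. Of all calls, 54.6% were higher as reported, 44.2% with upper-quartile factors, 44.3% with library size alone, 23.6% scaled to the T cell marker list and 47.4% by limma. Of the 10 B cell markers 10 fell scaled to the T cell marker list, 7 by DESeq2, 8 and 6 by limma with pseudocounts of 1 and 0.1, and 2 with the replicate block. Of the 10 dendritic cell markers 5 rose under the T cell scaling, 5 by DESeq2, and 5 and 4 by limma with those pseudocounts. Of the CD4 and regulatory T cell markers 1 fell by DESeq2 and 2 with the replicate block, and 1 of the 13 T cell markers rose under the T cell scaling. The causes were not tested. Deviations from the group means were nearly uncorrelated between libraries of the same replicate number (-0.0412 over 10599 genes). With only 2 libraries per group this cannot show whether the numbers mark a shared cage or day. With the replicate block 4971 genes passed, no call of the 9 genes changed, and 0 induced genes fell.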
